A study of Mus musculus with 9 samples.

Results

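The transcripts described here belong to tumour necrosis factor (TNF) signalling and the death pathway below it. The set holds 10 of the 54532 genes in the deposited table, chosen by gene name: Tnf, Adam17, Tnfrsf1a, Tnfrsf1b, Traf1, Traf2, Ripk1, Ripk3, Mlkl and Map2k6. All 10 passed the filter on low values, which kept genes averaging 0.2 FPKM or more over the 9 libraries (FPKM counts reads per gene, scaled to gene length and library depth). RNA of BV2 cells, an immortalized mouse microglial line, was sequenced in 3 groups of 3 libraries each. The control group grew in complete medium with 10% serum, and the oxygen-glucose deprivation (OGD) group in low-glucose medium with 4% serum at 4% O2. The OGD + A-485 group received OGD together with A-485, used in the study as an inhibitor of the histone acetyltransferase P300. Whether it also acted on relatives of P300 was not tested. The sample labels give neither dose nor time, and 50 μM of A-485 and 24 h of OGD were used in experiments that preceded the sequencing. No group received A-485 without OGD, and the effects of oxygen, glucose and serum cannot be told apart.

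TNF is made as a membrane protein and is cut free at the cell surface by the protease ADAM17. It binds TNFR1 (gene Tnfrsf1a), which carries a death domain, and TNFR2 (gene Tnfrsf1b), which does not. Adaptors such as TRAF2 and the kinase RIPK1 lead from the receptors to NF-kB and to MAP kinases, and where caspase 8 is blocked RIPK1 and RIPK3 activate MLKL, which breaks the cell membrane in necroptosis.

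The promoters of the 4 genes that were higher with OGD and lower with A-485, and of Ripk3, which had the largest rise of the 10 genes with A-485, are printed so that the start regions can be compared with the expression. Each line runs from 250 bases before to 50 bases after the RefSeq start in the direction of the gene (build GRCm38.p6), and capitals mark the motif letters found on either strand.
Tnf, chr17:35201958-35202257, minus strand: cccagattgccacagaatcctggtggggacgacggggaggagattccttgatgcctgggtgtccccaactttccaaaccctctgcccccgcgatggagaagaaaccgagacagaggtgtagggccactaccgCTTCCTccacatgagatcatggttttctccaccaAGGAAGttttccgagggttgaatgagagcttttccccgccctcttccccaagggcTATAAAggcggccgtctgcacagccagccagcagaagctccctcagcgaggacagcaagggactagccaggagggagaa
Traf1, chr2:34961723-34962022, minus strand: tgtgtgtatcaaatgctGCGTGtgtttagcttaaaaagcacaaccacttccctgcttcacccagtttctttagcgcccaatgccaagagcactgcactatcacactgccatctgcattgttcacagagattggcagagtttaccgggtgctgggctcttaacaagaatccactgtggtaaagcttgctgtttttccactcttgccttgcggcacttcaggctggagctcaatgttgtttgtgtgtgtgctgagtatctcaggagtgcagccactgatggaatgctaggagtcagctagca
Map2k6, chr11:110398852-110399151, plus strand: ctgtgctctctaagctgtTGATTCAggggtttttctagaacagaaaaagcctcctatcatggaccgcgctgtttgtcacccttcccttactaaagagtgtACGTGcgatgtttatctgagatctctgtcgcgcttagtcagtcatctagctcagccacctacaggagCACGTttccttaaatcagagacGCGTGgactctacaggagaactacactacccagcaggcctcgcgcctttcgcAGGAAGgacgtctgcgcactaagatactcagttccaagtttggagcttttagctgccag
Mlkl, chr8:111338156-111338455, minus strand: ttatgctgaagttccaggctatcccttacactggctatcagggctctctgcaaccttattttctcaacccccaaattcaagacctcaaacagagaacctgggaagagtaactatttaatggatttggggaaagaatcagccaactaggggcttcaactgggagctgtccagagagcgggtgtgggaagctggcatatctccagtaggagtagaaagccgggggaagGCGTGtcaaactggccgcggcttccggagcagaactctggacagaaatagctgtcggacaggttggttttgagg
Ripk3, chr14:55788808-55789107, minus strand: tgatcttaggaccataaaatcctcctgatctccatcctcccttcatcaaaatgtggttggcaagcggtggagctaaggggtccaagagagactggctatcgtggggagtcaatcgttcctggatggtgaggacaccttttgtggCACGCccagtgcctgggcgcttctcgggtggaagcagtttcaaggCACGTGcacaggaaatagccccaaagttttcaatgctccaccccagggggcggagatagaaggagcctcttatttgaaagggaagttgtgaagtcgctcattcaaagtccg

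RefSeq promoters were found for 10 of the 10 genes. The TATA box was searched as TATAAA on both strands of every window. Binding letters of AP-1 factors, which act below MAP kinases, were searched as TGANTCA. Those of ETS factors, common in myeloid genes, were searched as AGGAAG. The core of the hypoxia response element (HRE) was searched as ACGTG, the form usual at genes induced by low oxygen. The other form searched for this element differs in its first base and reads GCGTG. The cyclic AMP response element (CRE), which recruits the P300 relative CBP through CREB, was searched as TGACGTCA. The NF-kB site was searched by its consensus. Positions count from the start site as 0. In the Tnf promoter TATAAA lay at -29, and ETS letters lay at -118 and -84. The Map2k6 promoter held AP-1 letters at -232, HRE letters at -150, -83 and -61, and ETS letters at -9. HRE letters lay at -233 in Traf1 and at -24 in Mlkl, and at -106, -61 and -60 in Ripk3, where the last 2 matches overlap in a palindrome. HRE letters were in the first listed promoter of 8 of the 10 genes and in 43.8% of all 32817 promoters of this length, ETS letters in 6 of 10 and in 35.4%. TATAAA was found in Tnf alone among these first promoters (13.6% of all promoters), and AP-1 letters in Map2k6 alone (7.81%). The NF-kB consensus (8.46% of all promoters) and CRE (1.79%) were in none of the 10 windows, which says only that these letters are not there. The start used by RefSeq lay 20 bases from the gene start in the deposited table for Map2k6, 28 bases for Mlkl and 8 bases for Ripk3. For Tnfrsf1a, whose window is among the 6 with ETS letters, it lay 361 bases away. The gene start in the deposited table is outside that window.

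A gene was called higher or lower when its unadjusted limma p was under 0.01 and its log2 fold change was beyond 0.5 in either direction, the thresholds of the study, over 16123 genes tested. Compared to the control group, 5 of the 10 genes were called higher with OGD (Tnf, Tnfrsf1b, Traf1, Mlkl and Map2k6) and 0 lower, against 11.2% of all genes higher and 9.81% lower. No member was called lower by limma-voom on recovered reads either, and 2 of the 10 were lower at an unadjusted p under 0.05 (Traf2 and Ripk1). Shares of all genes at an unadjusted p under 0.05 alone were not computed. This count and those of the lists below at that threshold therefore have no background. Compared to the OGD group, 3 genes were called higher with A-485 (Tnfrsf1a, Adam17 and Ripk3) and 4 lower (Tnf, Traf1, Mlkl and Map2k6), against 12.2% and 13.4% of all genes. The 4 genes lower with A-485 were all among the 5 higher with OGD. These comparisons share the OGD libraries, and the share of all genes with that pattern was not computed. The median log2 fold change of the 10 genes was 0.40 with OGD and 0.24 with A-485, and that of all genes tested was 0.01 in both comparisons. Without overlap between the 3 libraries of each group were 9 of 10 genes with OGD, against 55.4% of all genes, and 9 of 10 with A-485, against 56.8%. Nothing in the labels says that the libraries of a group came from separate cultures, so p-values measure the spread between these libraries, which may be technical. In bulk RNA, fewer cells that express a gene and less RNA per cell cannot be told apart.

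**Figure D1:**
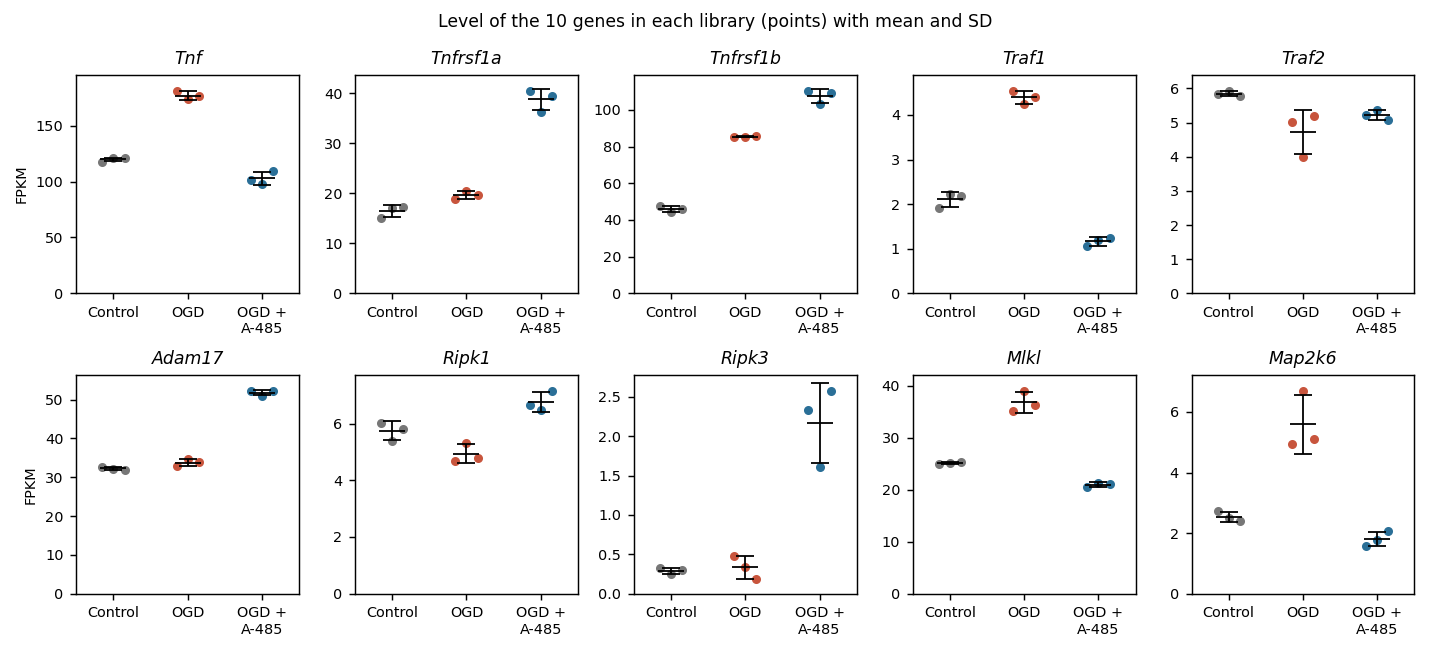
Level of each of the 10 genes in FPKM (vertical axis, linear, from 0) in each of the 3 groups. Points are libraries, bars the mean and SD of 3. The Tnf points lie between 118 and 121 in control, 173 and 181 with OGD, and 98.1 and 109 with A-485.

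Tnf, the ligand, had the highest level per length of the 10 genes in control and with OGD. The control libraries held 118, 121 and 121 FPKM, the OGD libraries 181, 173 and 176, and the OGD + A-485 libraries 102, 98.1 and 109. Every OGD library was above all others, and every A-485 library was below all control libraries. The mean rose from 119.7 ± 1.68 to 176.9 ± 3.95 FPKM with OGD (SD, n = 3 in each group), a log2 fold change of 0.56 (SE 0.04, adjusted p = 1.61e-05), and fell to 103 ± 5.77 with A-485 (log2 fold change -0.78, SE 0.04, adjusted p = 1.66e-06). The rise was 0.48 under quantile normalization, below the fold threshold. A-485 against control gave -0.22, which was not called. On the log2 scale, the 50 genes nearest to Tnf among those averaging 1 FPKM or more had a median change of -0.14 with A-485. They spanned 1260 kb of chromosome 17. With that median removed the fall of Tnf was -0.64.

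**Figure D2:**
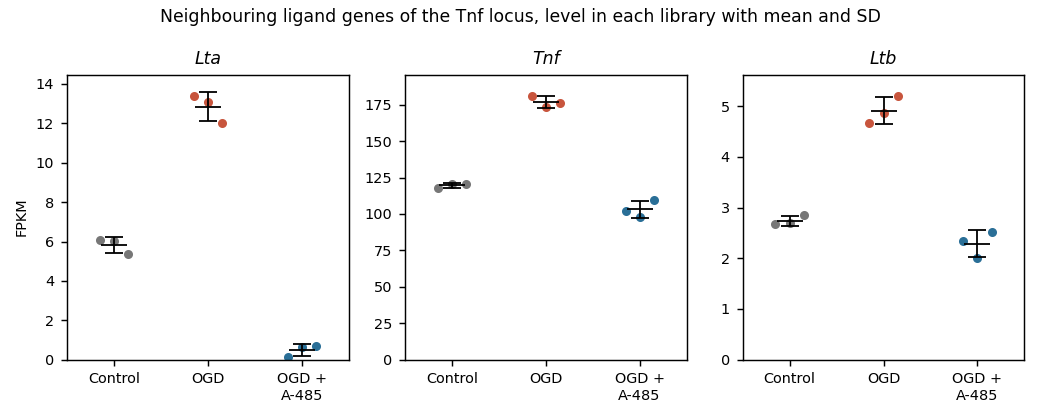
Levels of Lta, Tnf and Ltb, neighbouring genes on chromosome 17, in FPKM (vertical axis, linear, from 0). Points are libraries, bars the mean and SD of 3. All 3 genes are highest in the OGD libraries, and Lta stays under 1 FPKM in the OGD + A-485 libraries.

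The genes on either side of Tnf (chr17:35199381-35202007, minus strand) encode other ligands of the family. Lta (lymphotoxin alpha) lies 1158 bases away and Ltb (lymphotoxin beta) 3061 bases. Lta held 6.06, 6.04 and 5.36 FPKM in control, 13.4, 13.1 and 12 with OGD, and 0.148, 0.641 and 0.702 with A-485. All OGD libraries were above control, but the rise of 1.13 (log2, SE 0.38) had an unadjusted p of 0.0164 in the fit over all groups and was not called. It was called by limma when control and OGD were fitted alone (unadjusted p = 5e-06), with a pseudocount of 1, by limma-voom, and without OGD + A-485 replicate 1, the library with 3 Lta reads. The fall with A-485 was -4.61 (SE 0.38, adjusted p = 1.42e-05), from 234 to 236 reads per OGD library down to 3 to 14. It ranged from -4.94 to -3.23 over the alternatives. Ltb rose from 2.73 ± 0.102 to 4.91 ± 0.274 FPKM (log2 0.82, SE 0.10) and fell to 2.29 ± 0.261 (log2 -1.07, SE 0.10).

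Adam17, the protease that releases TNF and cuts TNF receptors, did not pass with OGD and rose with A-485. It held 32.7, 32.1 and 32.0 FPKM in control, 32.8, 34.6 and 33.8 with OGD, and 52.2, 51 and 52.1 with A-485. The OGD libraries were just above control and the A-485 libraries far above both. The log2 change was 0.06 (SE 0.03, adjusted p = 0.147) with OGD and 0.62 (SE 0.03, adjusted p = 1.06e-06) with A-485, or 0.48 under quantile normalization, below the fold threshold. Adam17 shares 311 bases with Iah1 on the opposite strand, which had a mean of 9.97 FPKM, and whether counting used strand is not given in the sources used here.

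Both receptors were above control in OGD + A-485, Tnfrsf1b mostly through the OGD step and Tnfrsf1a mostly through the A-485 step. Tnfrsf1b held 47.5, 44.5 and 46.2 FPKM in control, 85.2, 85.2 and 86.0 with OGD, and 110.4, 103 and 109 with A-485. The step with OGD was 0.89 on the log2 scale (SE 0.04, adjusted p = 9.06e-07). The further step with A-485 was 0.33 (SE 0.04, adjusted p = 0.000115), under the fold threshold although the libraries did not overlap. It was 0.63 once the median change of the 50 nearest genes averaging 1 FPKM or more, -0.30, was removed. Those genes spanned 7015 kb. Tnfrsf1a held 15.1, 17.0 and 17.4 FPKM in control, 18.9, 20.4 and 19.8 with OGD, and 40.5, 36.4 and 39.5 with A-485. Its large step came with A-485: the mean went from 19.7 ± 0.739 to 38.8 ± 2.18 FPKM, a log2 change of 0.97 (SE 0.06, adjusted p = 4e-06), and the OGD step was 0.26 (SE 0.06, adjusted p = 0.0105), not called. For Tnfrsf1a the 50 genes chosen in the same way had a median of 0.45 with A-485, over 4678 kb. The gene's change without that median was 0.52, still called.

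Within a library, the log2 ratio of Tnfrsf1a to Tnfrsf1b was -1.65, -1.38 and -1.41 in control, -2.16, -2.05 and -2.12 with OGD, and -1.44, -1.50 and -1.47 with A-485. All OGD ratios were below those of the other groups, so TNFR1 transcript was lowest relative to TNFR2 transcript with OGD. The mean changed by -0.63 (SE 0.09) with OGD and by 0.64 (SE 0.04) with A-485. The two-sided exact permutation p was 0.1 in each case, the smallest that 3 against 3 libraries can give.

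**Figure D3:**
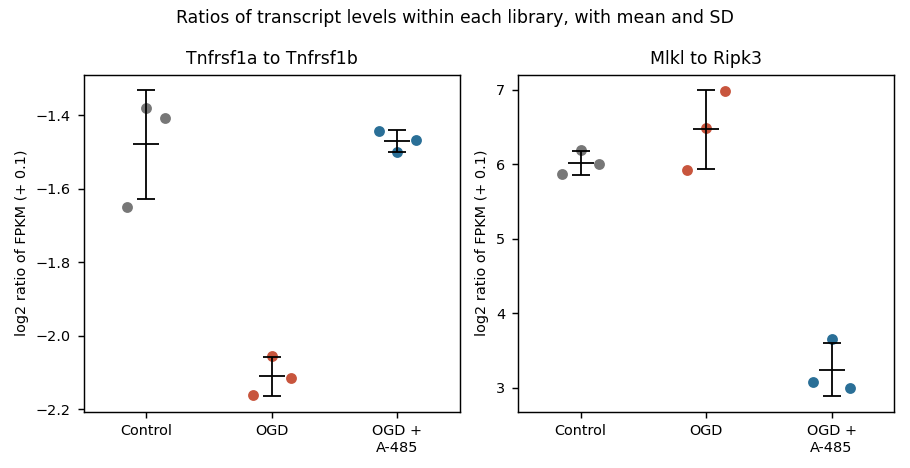
Log2 ratio of FPKM (each with 0.1 added) within each library, for Tnfrsf1a to Tnfrsf1b and for Mlkl to Ripk3, by group (vertical axis, no zero shown). Points are libraries, bars the mean and SD of 3. The OGD points are lowest for the receptors, and the OGD + A-485 points, from 2.99 to 3.65, are lowest for Mlkl to Ripk3.

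Of the adaptors, Traf1 had the largest fall among the 10 genes with A-485. TRAF1 binds TNFR2 together with TRAF2 and holds the ubiquitin ligases cIAP1 and cIAP2. Traf1 held 1.92, 2.23 and 2.18 FPKM in control, 4.54, 4.24 and 4.39 with OGD, and 1.06, 1.19 and 1.24 with A-485. The groups did not overlap in any pair. Its log2 change was 1.03 (SE 0.10, adjusted p = 4.64e-05) with OGD and -1.83 (SE 0.10, adjusted p = 1.2e-06) with A-485, on 137 to 545 reads per library. It was also the gene called lower in A-485 against control, at -0.80 (SE 0.10, adjusted p = 0.00011).

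Traf2, the adaptor shared by both receptors, was not called in any comparison. Its libraries held 5.83, 5.93 and 5.79 FPKM in control, 5.01, 3.99 and 5.18 with OGD, and 5.23, 5.36 and 5.07 with A-485. All OGD values were below control, and the log2 difference of -0.31 (SE 0.09) had an adjusted p of 0.0243. Without OGD replicate 2, the lowest library, it was -0.20. OGD and OGD + A-485 overlapped, and the adjusted p was 0.221.

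The necroptosis genes differed from each other in pattern. Mlkl, the executioner, followed Tnf: it held 24.9, 25.2 and 25.3 FPKM in control, 35.2, 39.0 and 36.3 with OGD, and 20.4, 21.3 and 21.1 with A-485. Every OGD library was above the others, and every A-485 library was below control. The log2 change was 0.55 (SE 0.04, adjusted p = 1.53e-05) with OGD and -0.81 (SE 0.04, adjusted p = 1.16e-06) with A-485. Scaled to library totals the rise was 0.499, which lost the call.

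Ripk3, the kinase that phosphorylates MLKL, was low without the inhibitor. It held 0.327, 0.245 and 0.296 FPKM in control and 0.480, 0.335 and 0.186 with OGD, on 6 to 14 reads per library, and these groups overlapped (log2 change 0.10, SE 0.30, adjusted p = 0.814). Its sign turned to -0.07 under quantile normalization and to -0.14 without OGD replicate 1. With A-485 the libraries held 2.33, 1.60 and 2.57 FPKM, on 58 to 85 reads, all above both other groups. The log2 change was 2.42 (SE 0.30, adjusted p = 0.000156), or 1.24 with a pseudocount of 1 in place of 0.1. The 50 genes nearest to it that averaged 1 FPKM or more had a median of 0.52.

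Ripk1, the kinase that joins the receptor complex to survival or death, was not called in any comparison. It held 6.03, 5.37 and 5.82 FPKM in control, 4.70, 5.31 and 4.78 with OGD, and 6.64, 6.49 and 7.15 with A-485. The OGD libraries were lowest and the A-485 libraries highest, without overlap. The log2 difference was -0.22 (SE 0.07, adjusted p = 0.0375) with OGD and 0.45 (SE 0.07, adjusted p = 0.000819) with A-485. The latter passed the fold threshold at 0.50 without OGD replicate 2 and at 0.76 with the neighbours' median of -0.31 removed. These neighbours spanned 15812 kb, so that median is not a local one. Ripk1 shares 432 bases with Serpinb6a on the opposite strand, which had a mean of 35.1 FPKM.

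The log2 ratio of Mlkl to Ripk3 was 5.87, 6.19 and 6.0 in control, 5.93, 6.49 and 6.99 with OGD, and 3.08, 3.65 and 2.99 with A-485. Control and OGD overlapped (difference 0.45, SE 0.32, two-sided exact permutation p = 0.3), and the difference was 0.72 without OGD replicate 1 and 0.19 without OGD replicate 3. The ratio dropped by 3.23 with A-485 (SE 0.37, two-sided exact permutation p = 0.1, the smallest possible), and by 2.02 with a pseudocount of 1.

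Map2k6 encodes MKK6, a kinase that activates p38 MAP kinases. It held 2.72, 2.51 and 2.40 FPKM in control, 4.95, 6.69 and 5.12 with OGD, and 1.59, 1.76 and 2.05 with A-485. Every OGD library was above every other library, with replicate 2 the highest. The log2 change was 1.09 (SE 0.14, adjusted p = 0.000207) with OGD and -1.57 (SE 0.14, adjusted p = 1.91e-05) with A-485, on 80 to 300 reads per library.

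**Figure D4:**
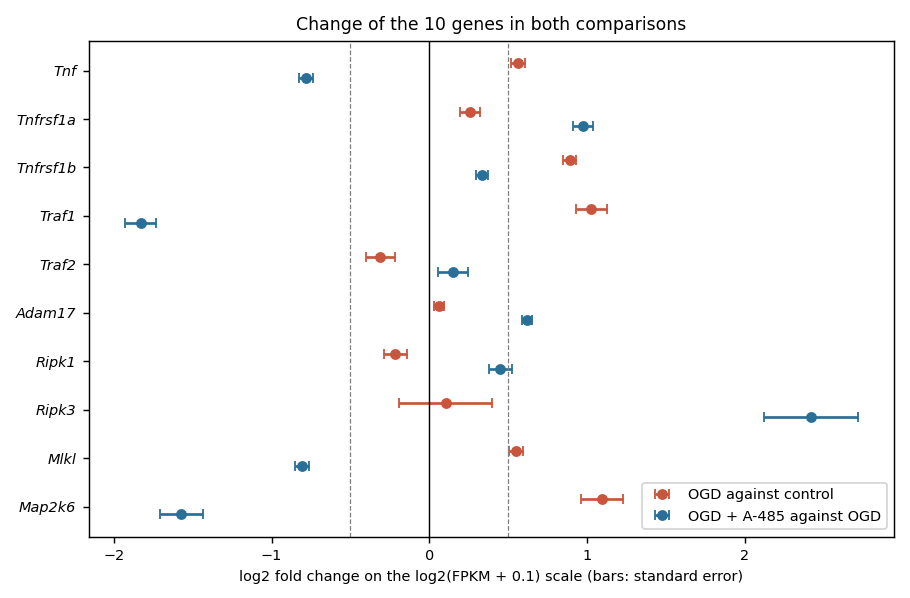
Log2 fold change of each of the 10 genes (horizontal axis) with OGD against control and with OGD + A-485 against OGD, from limma on log2(FPKM + 0.1). Bars are standard errors and dashed lines mark the fold threshold of 0.5. Tnf, Traf1, Mlkl and Map2k6 are right of zero with OGD and left of it with A-485, and Ripk3 has the widest error.

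Against the control group, OGD + A-485 gave 4 genes called higher (Tnfrsf1a, Tnfrsf1b, Adam17 and Ripk3) and 1 lower (Traf1), against 17.0% and 16.6% of all genes. The all-gene counts were 2747 higher and 2684 lower, and 2253 and 3349 when libraries were scaled to their totals. The log2 changes of the called genes were 1.23 for Tnfrsf1a, 1.22 for Tnfrsf1b, 0.68 for Adam17, 2.52 for Ripk3 and -0.80 for Traf1. Map2k6, at -0.48 (adjusted p = 0.0146), passed at -0.51 under quantile normalization, at -0.59 with scaling to library totals and at -0.57 without OGD + A-485 replicate 3. The groups of all 10 genes did not overlap, against 63.8% of all genes, with 5 genes above control and 5 below.

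The order of the levels per length changed between groups. In control it ran from Tnf through Tnfrsf1b, Adam17, Mlkl and Tnfrsf1a to Traf2 and Ripk1, whose libraries overlapped, and then to Map2k6, Traf1 and Ripk3. With OGD, Mlkl (35.2 to 39.0 FPKM) stood above Adam17 (32.8 to 34.6 FPKM), and the mean of Map2k6 (5.59 FPKM) passed those of Ripk1 (4.93) and Traf2 (4.73), with overlap between libraries. With A-485, Tnfrsf1b (103 to 110.4 FPKM) and Tnf (98.1 to 109 FPKM) overlapped at the top, Tnfrsf1a stood above Mlkl, and Ripk3 (1.60 to 2.57 FPKM), last in control, stood above Traf1 (1.06 to 1.24 FPKM).

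Among 11898 genes averaging 1 FPKM or more, the genes nearest to Tnf in centred log2 level over the 9 libraries were Dgkd (distance 0.160), Tgfbr2 (0.188) and Ccnl2 (0.192). Nearest to Mlkl were Ccnl2 (0.113), Tgfbr2 (0.127) and Erich1 (0.155), so Ccnl2 and Tgfbr2 were near both. Dgkd encodes a diacylglycerol kinase, Tgfbr2 a TGF-beta receptor and Ccnl2 a cyclin linked to splicing. Tgfbr2, for example, went from 8.35 ± 0.386 to 12.5 ± 0.518 and to 7.18 ± 0.0973 FPKM over the 3 groups. Nearest to Tnfrsf1a were Lcp1, an actin-bundling protein of blood cells (0.213), Mpp1 (0.236) and Fxyd2 (0.237). Lcp1 went from 118.8 ± 2.28 to 147.9 ± 2.85 and to 297.7 ± 5.29 FPKM.

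The other genes of the pathway were read from 7 lists by role, 131 genes in all, of which 108 passed the filter on low values. With OGD, 23 of the 108 were called higher (21.3%) and 10 lower (9.26%), and with A-485 against OGD 11 were called higher (10.2%) and 19 lower (17.6%). The shares of all genes were 11.2% and 9.81% with OGD and 12.2% and 13.4% with A-485, so the lower share with OGD and the higher share with A-485 were near the background. Their median log2 changes were 0.12 and 0.04, beside 0.01 for all genes. Of these genes 7 were higher with OGD and lower with A-485, as Tnf was: Tnfrsf13b, Zfp36, Dusp1, Casp6, Tnfrsf18, Ltb and Tnfrsf4. The shares of all genes with this and the next patterns were not computed. Both comparisons share the OGD libraries, so these counts cannot be set against a background. Called higher in both steps were 4 (Adam8, Tnfaip3, Birc3 and Tnfsf12), and 3 were lower with OGD and higher with A-485 (Mapk14, Ltbr and Tnfrsf14). Tnfrsf13b, Casp6, Birc3, Mapk14 and Ltbr are named here after their values were seen. Some of these calls sat at the fold threshold. The rise of Birc3 with A-485 (0.502) was lost in 6 of 20 alternatives, at 0.45 without OGD replicate 3 and 0.49 without OGD + A-485 replicate 3 among them. The rise of Casp6 with OGD was lost in 4, at 0.44 without control replicate 3 among them, and the fall of Ltbr with OGD also in 4, at -0.44 without control replicate 2 and -0.40 without OGD replicate 2 among them. The fall of Mapk14 with OGD lost its call under quantile normalization. OGD + A-485 against control gave 30 higher (27.8%) and 14 lower (13.0%), against 17.0% and 16.6% of all genes.

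**Figure D5:**
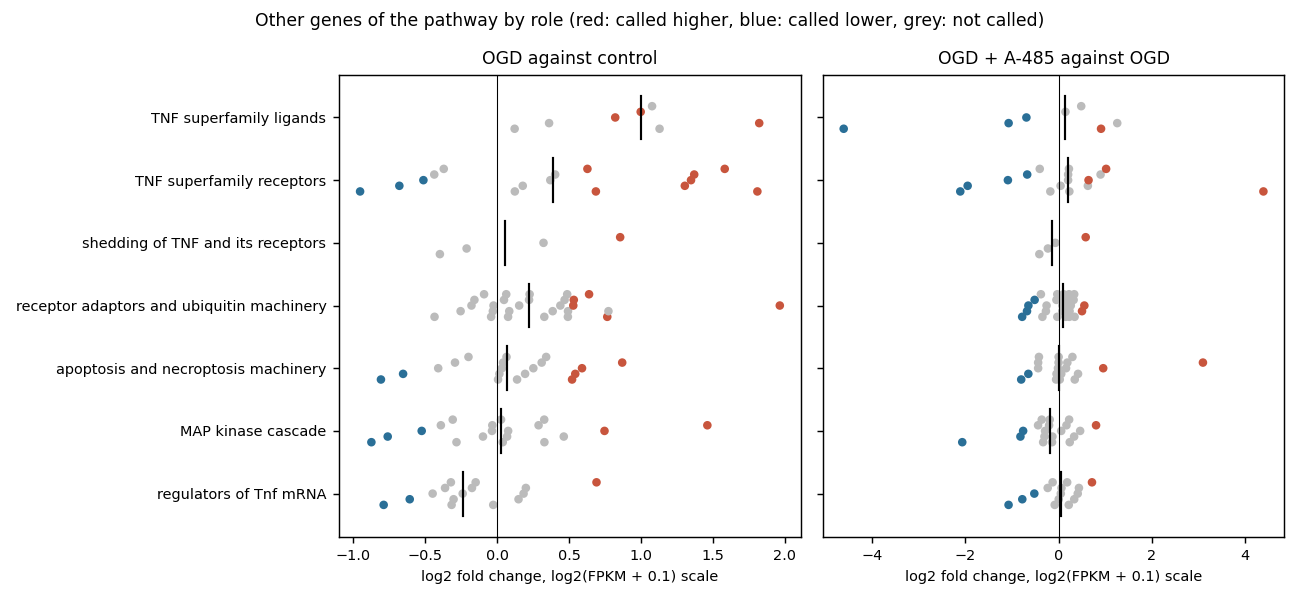
Log2 fold change (horizontal axis, a different scale in each panel) of the tested genes of the 7 lists, 1 point per gene, with the median of each list as a black bar. Red points were called higher, blue lower, grey not called. A grey point beyond 0.5 did not pass the p threshold. The ligands have the highest median with OGD, at 1.0, and the regulators of Tnf mRNA the lowest, at -0.24.

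Of 16 other ligands of the family 7 were tested, 3 higher and 0 lower with OGD, with 1 higher and 3 lower with A-485. Their shares were 42.9% and 0% with OGD, beside 11.2% and 9.81% of all genes. With A-485 they were 14.3% and 42.9%, beside 12.2% and 13.4%. No other ligand was called lower with OGD at an unadjusted p under 0.05 either, and 6 of the 7 were above control without overlap, beside 55.4% of all genes without overlap in either direction. Tnfsf13b (BAFF, a survival factor of B cells) rose from 1.63 ± 0.114 to 6.03 ± 0.354 FPKM with OGD (log2 1.82, SE 0.07) and stood at 8.47 ± 0.239 with A-485. Tnfsf12 (TWEAK) rose in both steps, from 1.11 ± 0.195 to 2.37 ± 0.678 and 4.45 ± 0.730 FPKM, and its call with A-485 (log2 0.91) was lost at 0.79 without OGD + A-485 replicate 1.

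Of 25 other receptors 16 were tested, with 7 higher and 3 lower with OGD, and 3 higher and 4 lower with A-485. The shares were 43.75% and 18.75% with OGD, beside 11.2% and 9.81% of all genes. With A-485 they were 18.75% and 25%, beside 12.2% and 13.4%. Tnfrsf18 (GITR) and Tnfrsf4 (OX40), co-stimulatory receptors known from T cells, lie near each other on chromosome 4, and each was called higher with OGD and lower with A-485. Tnfrsf18 went from 1.86 ± 0.407 to 6.69 ± 0.380 and back to 1.65 ± 0.124 FPKM, log2 changes of 1.81 (SE 0.15) and -1.95 (SE 0.15). Tnfrsf4 went from 0.802 ± 0.116 to 2.64 ± 0.660 and 0.525 ± 0.0758 FPKM, log2 changes of 1.58 and -2.11 (SE 0.21 for each). Tnfrsf14 (HVEM, the receptor of LIGHT) held 3 to 6 reads per library with OGD and 105 to 161 with A-485, a log2 change of 4.40 (SE 0.27). That change ranged from 2.59 to 4.94 over the alternatives. Tnfrsf14 averaged 1 FPKM or more only through the A-485 libraries (means 0.493 in control, 0.212 with OGD and 6.36 with A-485). Its fall with OGD, at -0.95, lost its call in 8 of 20 alternatives. Tnfrsf8 (CD30), 20267 bases from Tnfrsf1b, rose from 0.454 ± 0.123 to 1.26 ± 0.251 FPKM with OGD (log2 1.31, SE 0.23) and held 1.30 ± 0.251 with A-485, where the groups overlapped and the sign depended on the scaling.

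Of the 6 other genes of shedding 4 were tested, and Adam8, a metalloprotease, was the gene called, higher in both steps. That is 25% of the 4 in each step, beside 11.2% of all genes called higher with OGD and 12.2% with A-485. Adam8 went from 62.1 ± 1.29 to 112 ± 4.84 and 168 ± 7.46 FPKM, log2 changes of 0.86 and 0.58 (SE 0.05 for each), and the second was 0.46 under quantile normalization, below the fold threshold. Frmd8 and Adam10, named after their values were seen, were lower with OGD at an unadjusted p under 0.05, without a call.

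All 28 genes of the adaptor and ubiquitin list were tested, with 5 higher and 0 lower with OGD, and 2 higher and 4 lower with A-485. These calls made up 17.9% and 0% with OGD, beside 11.2% and 9.81% of all genes. With A-485 they made up 7.14% and 14.3%, beside 12.2% and 13.4%. At an unadjusted p under 0.05, 15 genes of that list were higher and 3 lower with OGD, counts without a share of all genes beside them. Without overlap 16 were above control and 4 below, beside 55.4% of all genes in either direction. Tnfaip3 (A20, a brake on NF-kB) had the largest rise of the list, from 2.5 ± 0.157 to 10.1 ± 0.407 FPKM (log2 1.97, SE 0.06), and it reached 14.8 ± 0.397 with A-485 (log2 0.55, SE 0.06, or 0.49 with scaling to library totals, below the fold threshold). Ikbke, a kinase related to TBK1, rose by 0.77 (SE 0.07). The 2 catalytic subunits of the IkB kinase were called lower with A-485: Chuk fell by 0.78 (SE 0.06) and Ikbkb fell by 0.68 (SE 0.05) on the log2 scale. The median change of the 50 genes nearest to Chuk was -0.35, and without it Chuk was at -0.43.

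Of 20 genes of the apoptosis and necroptosis list 19 were tested, with 4 higher and 2 lower with OGD, and 2 higher and 2 lower with A-485. The shares were 21.1% and 10.5% with OGD, beside 11.2% and 9.81% of all genes. With A-485 each was 10.5%, near the 12.2% and 13.4% of all genes. Ticam1 (TRIF, which can bind RIPK3 through its own motif) rose from 10.5 ± 0.948 to 19.3 ± 0.482 FPKM with OGD (log2 0.87, SE 0.09). Bid, which carries the caspase 8 signal to mitochondria, fell from 25.2 ± 0.514 to 14.4 ± 1.28 FPKM (log2 -0.81, SE 0.06). Tnfaip8l2 (TIPE2, a relative of the TNF-induced gene Tnfaip8) went from 44.1 ± 1.97 FPKM in control and 55.9 ± 3.35 with OGD to 108.7 ± 8.42 with A-485 (log2 0.96, SE 0.07). Cybb, the catalytic subunit of the phagocyte NADPH oxidase, went from 7.78 ± 0.464 and 9.67 ± 0.584 FPKM to 83.5 ± 2.62 with A-485 (log2 3.10, SE 0.06).

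Of 21 other MAP kinase genes 19 were tested, with 2 higher and 3 lower with OGD, and 1 higher and 3 lower with A-485. The shares were 10.5% and 15.8% with OGD, beside 11.2% and 9.81% of all genes. With A-485 they were 5.26% and 15.8%, beside 12.2% and 13.4%. The higher share with OGD and the lower share with A-485 were near the background. Map2k3, the other p38 kinase kinase, moved opposite to Map2k6 with OGD: it fell from 26.6 ± 0.895 to 14.5 ± 1.71 FPKM (log2 -0.88, SE 0.08). Per length, Map2k3 had the higher level of both in every group. Dusp1, a phosphatase that switches off p38 and JNK, rose from 5.30 ± 0.643 to 14.7 ± 1.33 FPKM (log2 1.46, SE 0.09) and fell to 8.63 ± 0.175 (log2 -0.76, SE 0.09). Mapk11 (p38 beta) was lower in both steps, at -0.76 and -2.07, and the first call was lost in 6 alternatives. Map3k5 (ASK1) fell by 0.82 (SE 0.08) with A-485.

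Of the 15 genes that bind or degrade Tnf mRNA, all were tested, with 1 higher and 2 lower with OGD, and 1 higher and 3 lower with A-485. The shares were 6.67% and 13.3% with OGD, beside 11.2% and 9.81% of all genes. With A-485 they were 6.67% and 20%, beside 12.2% and 13.4%. Zfp36 (tristetraprolin, which speeds the decay of Tnf mRNA) moved as Tnf did, from 14.7 ± 0.300 to 23.7 ± 0.255 and 11.2 ± 0.582 FPKM, log2 changes of 0.69 and -1.07 (SE 0.04 for each). Its relative Zfp36l2 fell by 0.79 (SE 0.05) with OGD and was not called with A-485, where its sign depended on the scaling (0.05, and -0.03 under quantile normalization). Khsrp, another decay factor, fell by 0.78 (SE 0.06) with A-485, and with the median of its neighbours on chromosome 17 (-0.38) removed it was -0.40, which lost the call.

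Each library held 12593250 to 16091038 reads on genes, so that 1 read on 1 kb was worth 0.0618 to 0.0786 FPKM. Of 16 microglia and macrophage markers 13 averaged 1 FPKM or more over the 9 libraries, Csf1r, Tyrobp and Cd68 among them. Of these 13, Aif1 (0.613, 0.889 and 2.57 FPKM in control, OGD and OGD + A-485) and C1qb (0, 0 and 13.0) reached it only through the A-485 libraries. Sall1, P2ry12 and C1qa were near 0. The summed level of these markers was 585 to 606 FPKM in control, 761 to 779 with OGD and 1326 to 1368 with A-485. Above OGD without overlap were 13 of the 16 with A-485, where Csf1r went from 44.6 to 130.6 FPKM and C1qb from 0 to 13.0, and their part in the rises of Tnfrsf1a, Tnfrsf1b, Adam17, Ripk3 and Cybb was not tested. Markers of neurons, astrocytes, oligodendrocytes, fibroblasts, endothelium and T cells had means of at most 0.956 FPKM.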

How the data were processed

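Each group of 3 libraries was assigned from the sample titles. The authors removed adapter and low-quality reads, counted reads per gene with featureCounts v1.5.0-p3 and deposited FPKM (GRCm38 and mm10 are named in the submitters' processing notes). The aligner is not given in the sources used here. The deposited FPKM times gene length and a divisor per library gave whole reads for 100% of values above 0 (tolerance 0.001 reads), so the depth is known, although the divisor was not the plain library total. The authors tested with DESeq2, which was not repeated here, and limma-voom on the recovered reads was run as an alternative.

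Here log2(FPKM + 0.1) of the 16123 genes that averaged 0.2 FPKM or more over the 9 libraries was modelled in R 4.3.3 with limma 3.58.1 (a mean per group, trended prior variance), with Benjamini-Hochberg adjustment over all genes tested. Adjusted p-values in the text come from that fit. Genes were called at an unadjusted p under 0.01 with a log2 fold change beyond 0.5 in either direction. A fold change on this scale understates the change of genes with low values. Ratios were compared by exact permutation. The fit was tested on simulated data. Python 3.11.15 with pandas 2.3.3 was used for the rest.

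The genes and the 7 lists were chosen with earlier results of these data known, and 2 genes of the lists are not reported here. The genes named are the 10 members, the 2 largest called changes per list and comparison among genes averaging 1 FPKM or more, the 3 genes most like Tnf, Tnfrsf1a and Mlkl, and neighbours of members that are in the lists. Gene coordinates are those of the deposited table, and 98.3% of its gene identifiers that are in GENCODE M21 have the same coordinates there, all 10 members included. No pair of libraries was identical, and replicate libraries differed beyond sampling noise (chi-square divided by its degrees of freedom, 2.80 to 5.73). Alternatives were other pseudocounts and filters, no trend, other scalings, a fit of only the 2 groups compared, limma-voom, a replicate block, removal of the median of 50 neighbouring genes, an adjusted p under 0.05, and leaving out each library. For genes named outside the members, the alternatives were applied after seeing the data. Neighbouring genes were the 50 nearest on the same chromosome that averaged 1 FPKM or more. Among the members they spanned from 1260 kb for Tnf to 21039 kb for Adam17.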

Additional observations from a re-analysis of the deposited data

How the results depend on the processing

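Over all alternatives, 283 recomputed counts and ratios stayed within their limits and 5 moved. The limit was a fixed factor for a count, but for a ratio only the sign of its difference, whatever its size. With the replicate block the ratio differences equal the main ones by construction. Of the fold changes of single genes 2046 kept direction and call, 44 lost and 20 gained a call, and 7 turned sign. Members called higher with A-485 against OGD went from 3 to 5 with the median of 50 neighbouring genes removed, where Tnfrsf1b and Ripk1 joined, and 2 members were called lower in A-485 against control, in place of 1, under quantile normalization, with scaling to library totals and with neighbours removed, where Map2k6 joined. Leaving out 1 library gave 1 to 2 for that count, with 2 without OGD + A-485 replicate 3. Signs turned for values near 0. Ripk3 with OGD was -0.072 under quantile normalization and ranged from -0.14 (without OGD replicate 1) to 0.37 (without OGD replicate 3) with 1 library left out. Zfp36l2 with A-485 was -0.026 under quantile normalization and -0.018 with scaling to library totals. Tnfrsf8 with A-485 was -0.018 with scaling to library totals and ranged from -0.10 (without OGD replicate 2) to 0.18 (without OGD + A-485 replicate 2), with -0.08 without OGD + A-485 replicate 3. The cause was not tested. Ripk3 has no value under the filter at 1 FPKM.

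No shared deviation from the group means was seen in same-numbered libraries (mean correlation -0.03 over 9 pairs, range -0.12 to 0.07, against 0.02 over 18 other pairs). Deviations cancel within a group, so these averages are tied, and shared handling of same-numbered libraries cannot be decided from them. With the replicate number as a block, 5 and 3 members were called higher and 0 and 4 lower with OGD and with A-485, as without the block, and 12 in place of 11 list genes were higher with A-485. Depth limits Ripk3, Lta, Tnfrsf14, Tnfrsf4 and Mapk11 among others, which rest on few reads in at least 1 group. With A-485, Tnfrsf4 held 10 to 12 reads per library and Mapk11 14 to 24. The weakest falls with A-485 among the alternatives were -1.24 for Tnfrsf4 and -1.14 for Mapk11. Another scaling changed the call of Tnf, Mlkl, Adam17 and Map2k6 in 1 comparison each.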
